A study of Mus musculus with 58 samples.

Results

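The growth factor and cytokine receptors described here are 10 genes chosen by name, of 25307 genes in the expression table: Csf1r, Csf2ra, Csf2rb, Csf3r, Ifngr1, Il6ra, Il10ra, Il15ra, Tgfbr1 and Tgfbr2. Their rows were found by matching Ensembl identifiers to symbols, and all 10 were present and passed the filter on low values in every fit. Messenger RNA was measured in 58 libraries from livers of 129SV mice: 20 of Kupffer cells (KC, the resident macrophages of the liver), 19 of monocyte-derived macrophages (MoMF) and 19 of monocytes (Mo). The mice belonged to 5 injury groups: ligation of the common bile duct with acute colitis added (CBDL+DSS), acute colitis alone (DSS), ligation at 6 weeks (CBDL6w, advanced cholestatic injury), ligation at 2 weeks (CBDL2w, its onset), and controls at 6 weeks (Sham6w). Each of the 15 groups held 4 libraries, except 3 each for MoMF and Mo of Sham6w, and the labels of 9 libraries joined 2 or 3 replicate numbers, where per the design text replicates were at times pooled. No genotype other than the strain is given, and the age, the sex, the sort gates and the time of DSS and CBDL+DSS have no value in the sources used. CBDL2w therefore differs from its controls also in time. DSS and CBDL+DSS may differ from Sham6w in it, and CBDL+DSS from CBDL6w.

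These receptors fall into 3 signalling families. Csf1r is a receptor tyrosine kinase for Csf1 and Il34 on which macrophages, Kupffer cells included, depend for survival. Csf2ra, Csf2rb, Csf3r, Ifngr1, Il6ra, Il10ra and Il15ra belong to cytokine receptors that signal through JAK kinases and STAT factors: Csf2ra binds Csf2 and pairs with the shared signalling chain Csf2rb, Il6ra binds Il6 and pairs with Il6st, Il10ra pairs with Il10rb, Ifngr1 is the ligand-binding chain of the interferon-gamma receptor, Csf3r is the receptor of the granulocyte growth factor Csf3, and Il15ra holds Il15 on the cell surface and presents it to lymphocytes. Tgfbr1 and Tgfbr2 are the serine-threonine kinases that bind transforming growth factor beta together and pass the signal to SMAD factors.

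Library totals were 118687 to 521954 recovered reads, with 8885 to 13360 genes detected. Genes of Kupffer cells made up 0.235 to 0.832% of the reads in KC libraries and 0.00753 to 0.286% in MoMF and Mo libraries, and genes of classical monocytes 0.0187 to 0.0943% in KC, 0.0904 to 0.349% in MoMF and 0.307 to 0.665% in Mo. Endothelial transcripts moved with the injury groups in Mo, at 0.0153 to 0.0259% in CBDL+DSS, 0.133 to 0.276% in DSS, 0.00906 to 0.0239% in CBDL6w, 0.0104 to 0.0138% in CBDL2w and 0.193 to 0.337% in Sham6w. Levels below are the authors' normalized counts, with SD over libraries and n = 4 unless said, and differences are log2 ± SE of normalized count + 1 from limma, whose p-values were adjusted by Benjamini-Hochberg over all genes tested in a comparison. A difference was called at an adjusted p under 0.05, two-sided, and the share of all tested genes called is given beside each count. In bulk libraries, fewer cells of a type and less RNA per cell cannot be told apart. Apart from replicate numbers no label says whether libraries of a group came from separate animals, so the p-values measure the spread between these libraries.

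In GENCODE M21 (GRCm38), Il15ra lies on chromosome 2 (11705290-11734317, plus strand) and Ifngr1 on chromosome 10 (19591949-19610229, plus strand). Tgfbr2 lies on chromosome 9 (116084293-116175360, minus strand), Il6ra on chromosome 3 (89864059-89913196, minus strand), Csf2rb on chromosome 15 (78325752-78353847, plus strand) and Tgfbr1 on chromosome 4 (47353222-47414931, plus strand). Values are of whole genes, read from their 3′ ends. Promoter sequences from the RefSeq table for GRCm38.p6 were searched for 7 of the 10 receptors, with 9 start sites between them. Each window ran from 250 bases before the start to 50 after it. Windows of the other receptors were not searched. Il15ra had the largest called difference between injury groups, and its first listed start is shown (chr2:11705043-11705342, plus strand). Ifngr1 (chr10:19591699-19591998, plus strand) and Tgfbr2 (chr9:116175314-116175613, minus strand) are shown because both were lower in KC of DSS and differed between the effects of colitis with and without ligation. Capitals mark matches, on either strand, to the motifs searched.
Il15ra: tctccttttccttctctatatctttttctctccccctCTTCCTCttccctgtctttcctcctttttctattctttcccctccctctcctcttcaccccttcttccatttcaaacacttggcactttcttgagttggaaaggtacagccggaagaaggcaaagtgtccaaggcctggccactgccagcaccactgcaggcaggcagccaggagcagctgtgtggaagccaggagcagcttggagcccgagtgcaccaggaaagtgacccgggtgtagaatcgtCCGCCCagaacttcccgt
Ifngr1: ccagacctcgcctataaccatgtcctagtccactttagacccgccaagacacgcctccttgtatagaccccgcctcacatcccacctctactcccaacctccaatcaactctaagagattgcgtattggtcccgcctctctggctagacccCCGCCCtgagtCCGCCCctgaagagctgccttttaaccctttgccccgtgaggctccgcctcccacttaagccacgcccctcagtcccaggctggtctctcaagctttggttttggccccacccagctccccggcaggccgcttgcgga
Tgfbr2: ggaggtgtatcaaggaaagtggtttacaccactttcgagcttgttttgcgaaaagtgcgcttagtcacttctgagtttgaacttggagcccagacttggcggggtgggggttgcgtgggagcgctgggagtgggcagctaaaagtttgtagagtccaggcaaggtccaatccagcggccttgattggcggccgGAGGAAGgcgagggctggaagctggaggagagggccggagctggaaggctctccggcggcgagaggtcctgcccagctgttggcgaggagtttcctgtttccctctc
The motifs searched were GAS (TTCNNNGAA), ISRE, AP-1 (TGANTCA), E-box (CACGTG), PU.1 (GAGGAAG) and GC box (GGGCGG), on both strands. They occurred in 8.29%, 3.43%, 7.81%, 7.15%, 13.6% and 35.6% of the 32817 promoter windows of the same length that were searched. None of the 9 receptor windows held the GAS or ISRE letters. PU.1 letters stood in windows of Csf2ra, where a pair of matches shared a base, Csf3r, Il15ra, Tgfbr1 and Tgfbr2. GC box letters stood in windows of Csf2ra, Ifngr1, Il15ra and Tgfbr1, AP-1 letters in the second window of Il15ra and E-box letters in that of Il6ra. No match overlapped one of another motif. A match describes letters in the window and not a bound site, and a window without one says nothing of the factor.

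**Figure D1:**
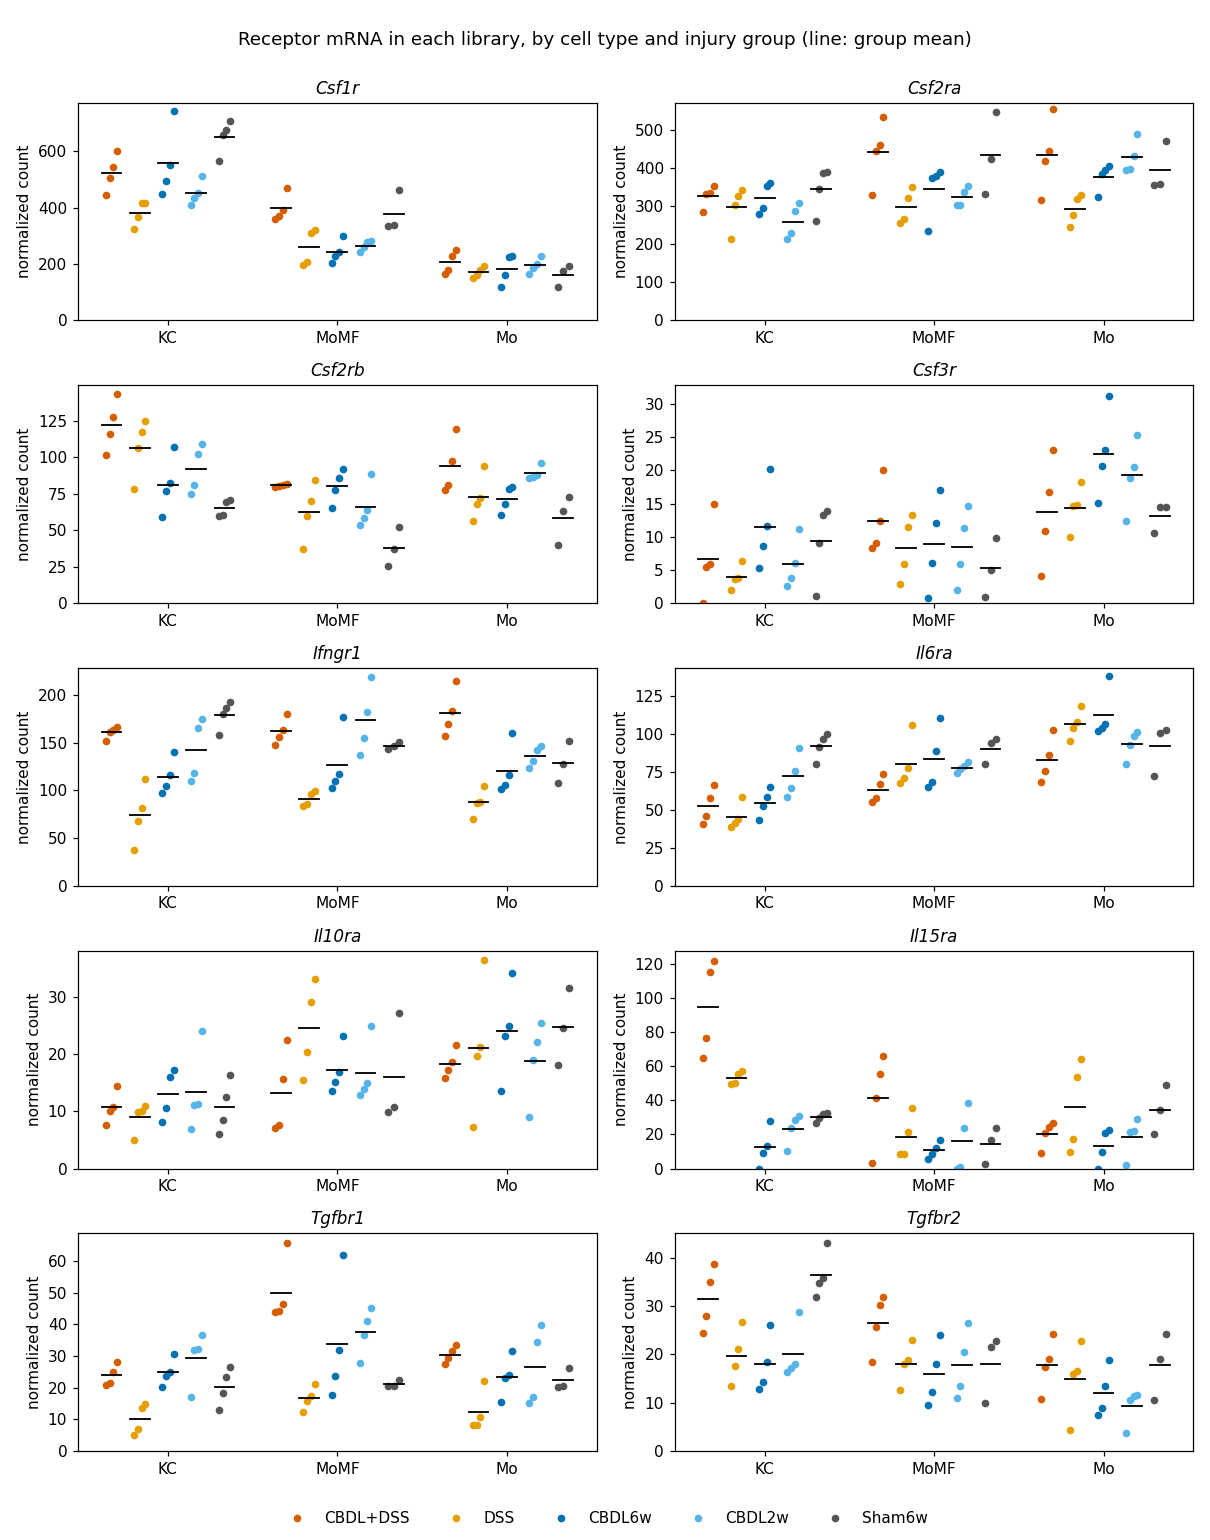
Normalized counts of the 10 receptors in each of the 58 libraries, in 1 panel per gene, by cell type (x axis) and injury group (colour); points are libraries and lines are group means. Csf1r stands highest in KC and lowest in Mo, Ifngr1 is lowest in DSS in all 3 cell types, and Il15ra is highest in KC of CBDL+DSS at 64.8 to 122 normalized counts.

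First, the 3 cell types were compared as the mean difference over the 5 injury groups. Csf1r, the survival receptor of macrophages, was graded across them: it averaged 514 ± 116 normalized counts over the 20 KC libraries, 305 ± 80.9 over the 19 MoMF libraries and 185 ± 36.9 over the 19 Mo libraries. It was higher in KC than in MoMF by 0.75 ± 0.08, in KC than in Mo by 1.47 ± 0.08 and in MoMF than in Mo by 0.73 ± 0.08 (log2 differences, adjusted p = 1.01e-10, 1.28e-21 and 1.46e-09). The receptors Il6ra, Il10ra and Csf3r ran the other way. Il6ra, the ligand-binding chain for Il6, averaged 63.6 ± 19.8 in KC, 78.6 ± 15.1 in MoMF and 97.9 ± 16.6 in Mo. It was lower in KC than in Mo by -0.65 ± 0.08 and in MoMF than in Mo by -0.30 ± 0.08. Within Sham6w alone its means were close, at 92.3 in KC, 90.4 in MoMF and 92.1 in Mo. There it was not called for KC minus Mo (0.02 ± 0.20, adjusted p = 0.979) or KC minus MoMF (0.03 ± 0.20, adjusted p = 0.943).

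Between KC and MoMF, 7 of the 10 receptors were called, where 32.5% of all tested genes were called. Higher in KC were Il15ra (1.23 ± 0.41), Csf1r and the shared chain Csf2rb (0.53 ± 0.10). Lower in KC were Il10ra (-0.55 ± 0.18), the TGF-beta type I receptor Tgfbr1 (-0.51 ± 0.15), Il6ra (-0.35 ± 0.08) and Csf2ra (-0.23 ± 0.08). Between KC and Mo, 7 were called against 41.2% of all genes: Csf1r, Tgfbr2 (0.81 ± 0.17) and Csf2rb (0.26 ± 0.10) were higher in KC, and Csf3r (-1.29 ± 0.29), Il10ra (-0.85 ± 0.18), Il6ra and Csf2ra (-0.31 ± 0.08) were lower. Between MoMF and Mo, 3 were called against 14.7% of all genes, with Csf1r higher and Csf3r (-1.06 ± 0.30) and Il6ra lower in MoMF. Ifngr1 was called in none of the 3 contrasts, with means of 134 ± 42.8 in KC, 139.6 ± 37.1 in MoMF and 131 ± 36.7 in Mo. The Csf2ra call against MoMF was lost without MoMF Sham6w replicate 1+2+5 (adjusted p = 0.052). The Csf2rb call against Mo was lost without Mo Sham6w replicate 3+6 (adjusted p = 0.0773) or without the filter (0.0801). With the replicate number as a block, the calls of Il15ra and Csf2ra against MoMF were lost (adjusted p = 0.157 and 0.0502). Among libraries with single numbers, Sham6w kept only replicate 3 of MoMF and replicate 4 of Mo. There the calls of Il15ra, Tgfbr1 and Csf2ra for KC minus MoMF were lost, at 0.92, -0.47 and -0.15. So were those of Csf2rb for KC minus Mo (0.18) and of Il6ra and Csf3r for MoMF minus Mo (-0.32 and -0.83).

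**Figure D2:**
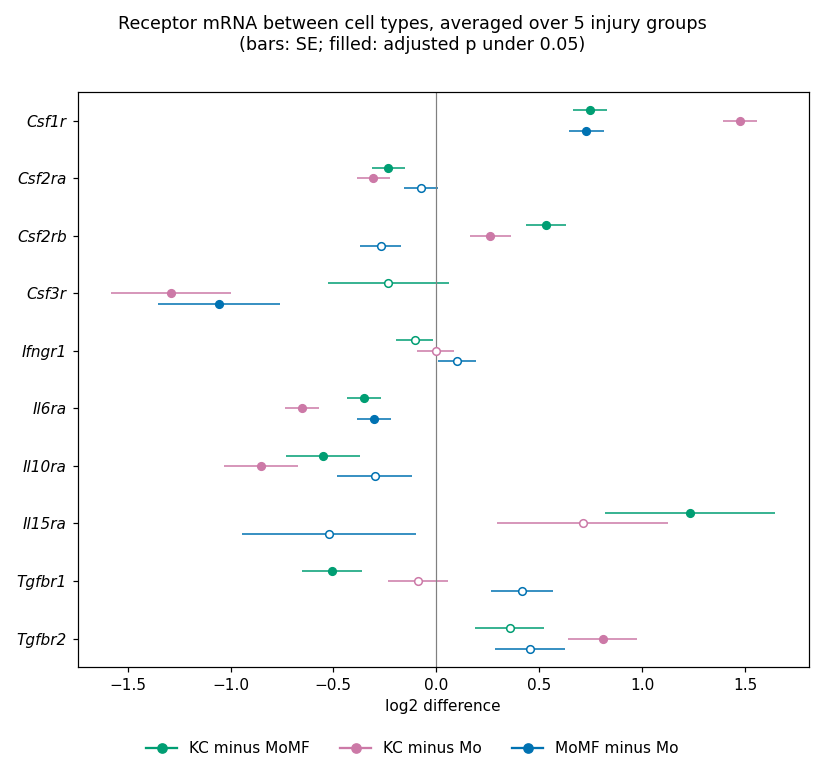
Log2 differences of the 10 receptors (rows) between cell types, averaged over the 5 injury groups, with SE bars; filled points had an adjusted p under 0.05. Csf1r lies to the right in all 3 contrasts, at 0.75, 1.47 and 0.73, while Csf3r, Il6ra and Il10ra lie to the left in KC minus Mo.

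Csf3r and Il10ra rested on few reads, with 4 to 38 per library for Il10ra. Csf3r, the receptor of Csf3 and best known from neutrophils, had 0 to 30 reads per library, with 1 of 58 libraries at 0. It averaged 7.45 ± 5.32 normalized counts in KC, 8.89 ± 5.45 in MoMF and 16.8 ± 6.33 in Mo. Neutrophil genes held 0.000618 to 0.0145% of the reads in KC, 0.00109 to 0.027% in MoMF and 0.00789 to 0.22% in Mo. Their part in the Csf3r difference was not tested.

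Within Sham6w alone, with n = 4 for KC and n = 3 each for MoMF and Mo, Csf1r kept its order. It was 565, 659, 676 and 708 normalized counts in KC, 335, 339.8 and 463 in MoMF, and 118, 174 and 192 in Mo. No library of 1 cell type reached another's range. The log2 differences were 0.79 ± 0.20 for KC minus MoMF, 2.03 ± 0.20 for KC minus Mo and 1.24 ± 0.21 for MoMF minus Mo (adjusted p = 0.00284, 1.29e-11 and 8.66e-05). Csf2rb was also higher in KC than in MoMF, at 65.1 ± 5.78 against 38.2 ± 13.3 (0.81 ± 0.23), a call lost without MoMF Sham6w replicate 4+6 (adjusted p = 0.125). Among libraries with single numbers, with 1 library of MoMF and 1 of Mo, this call was lost (0.80). So was that of Csf1r between MoMF and Mo (also 0.80). Thus 2 receptors were called between KC and MoMF, 1 between KC and Mo, and 1 between MoMF and Mo, where 15.9%, 16% and 6.15% of all genes were called. With the replicate number as a block, the calls of Csf1r and Csf2rb between KC and MoMF were lost (adjusted p = 0.0574 and 0.193). Csf1r, on chromosome 18 (61100598-61132149, plus strand), overlaps Hmgxb3 on the opposite strand by 873 bases, and whether reads were assigned by strand is not given in the sources used here. Hmgxb3 itself had 0 to 13.1 normalized counts. If strand was not used, reads of the shared bases may be missing from that count. It therefore cannot tell how many of them Csf1r holds.

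Whether the response to injury differed between cell types was tested over the 8 interaction terms of cell type and injury group. Il6ra was the 1 receptor called (adjusted p = 0.0356), where 5.02% of all genes were called. Its means in KC were 52.7 ± 11.7 in CBDL+DSS, 45.6 ± 8.89 in DSS, 54.9 ± 9.24 in CBDL6w, 72.4 ± 14.3 in CBDL2w and 92.3 ± 8.64 in Sham6w. In MoMF they were 63.5 ± 8.69, 80.6 ± 17.4, 83.3 ± 21.1, 77.9 ± 2.86 and 90.4 ± 8.68 in the same order of groups, and in Mo 83.3 ± 14.9, 106.6 ± 9.69, 113 ± 17.2, 93.2 ± 9.42 and 92.1 ± 17.1. The level of Il6ra was thus lowest in DSS in KC, in CBDL+DSS in MoMF and in CBDL+DSS in Mo. The call was lost when any of KC Sham6w replicates 1, 2 and 3 or KC DSS replicates 1, 2 and 3 was left out. Leaving out Mo DSS replicate 1 or Mo Sham6w replicate 3+6 also ended it, with an adjusted p of up to 0.0994 over these refits. It was lost too without the filter (adjusted p = 0.153), with equal library totals (0.06) and with the replicate number as a block (0.205). Among libraries with single numbers, with 1 Sham6w library each in MoMF and Mo, it was not called either. Il6ra overlaps the antisense gene Gm42809, which had at most 0.831 normalized counts. Csf1r had an adjusted p of 0.0811 in this test and Ifngr1 one of 0.487.

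In KC of acute colitis, 4 receptors fell and 1 rose. Ifngr1, the ligand-binding chain of the interferon-gamma receptor, was 37.5, 67.9, 81.4 and 112 normalized counts in DSS, against 158.5, 179.7, 186 and 193 in Sham6w. All 4 DSS libraries lay below all 4 Sham6w libraries, and the fall of -1.35 ± 0.23 had an adjusted p of 0.00125. Csf1r was 324, 366, 415 and 418 in DSS and 565, 659, 676 and 708 in Sham6w (-0.78 ± 0.15, adjusted p = 0.00334). Il6ra was 38.8, 41.1, 43.9 and 58.5 in DSS and 80.5, 91.6, 96.9 and 100.3 in Sham6w (-1.01 ± 0.20, adjusted p = 0.00396). These 3 calls held without each library in turn and in every alternative fit.

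Tgfbr2, the TGF-beta type II receptor, was 13.4, 17.5, 21.0 and 26.8 in KC of DSS and 31.9, 34.9, 35.7 and 43.0 in Sham6w, without overlap (-0.89 ± 0.28, adjusted p = 0.0490). Csf2rb, the shared chain of the Csf2 receptor, was the member that rose, at 78.4, 106, 117 and 125 in DSS against 59.6, 60.6, 69.7 and 70.5 in Sham6w (0.69 ± 0.19, adjusted p = 0.0331). Both calls were lost without any 1 of the 8 libraries except DSS replicate 4, with adjusted p up to 0.134 for Tgfbr2 and 0.103 for Csf2rb. Both were also lost without the filter, and Tgfbr2 with equal library totals, with edgeR and among libraries with single numbers. Tgfbr1 was 5.00, 7.15, 13.7 and 14.9 in DSS and 12.9, 18.2, 23.4 and 26.6 in Sham6w, with overlap (-0.99 ± 0.32, adjusted p = 0.0602). Il15ra lay at 49.6 to 57.5 in DSS and 26.7 to 32.4 in Sham6w without overlap, but its difference of 0.80 ± 0.61 was not called (adjusted p = 0.464). In all, 5 of 10 receptors were called in KC of DSS, where 7.89% of all genes were called. The median log2 difference of the 10 was -0.79, beside -0.0658 over all genes tested. Kupffer cell genes also differed in these libraries, at 0.53 to 0.703% of the reads in DSS and 0.736 to 0.832% in Sham6w, and genes of classical monocytes were at 0.0362 to 0.0943% in DSS and 0.0187 to 0.031% in Sham6w. Mitochondrial transcripts were at 3.49 to 5.2% in DSS and 6.46 to 9.0% in Sham6w, and ribosomal protein genes at 11.9 to 13.7% in DSS and 7.79 to 8.82% in Sham6w. Their part in these results was not tested.

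The fall of Ifngr1 can be set beside its values in the other cell types. In MoMF it was 83.4, 85.4, 96.5 and 98.9 in DSS, against 143, 147 and 151 in Sham6w, and in Mo 69.9, 87.1, 87.9 and 104 in DSS, against 107, 127 and 152. The libraries of DSS lay below those of Sham6w without overlap in both cell types. The differences of -0.69 ± 0.21 and -0.56 ± 0.19 were not called (adjusted p = 0.0848 and 0.113), and the test of a difference between cell types gave no call either. For Csf1r the same comparison gave -0.57 ± 0.21 in MoMF and 0.10 ± 0.22 in Mo, neither called. No receptor was called in MoMF of DSS, where 2.07% of all genes were called, or in Mo of DSS, where 1.59% were. At an unadjusted p under 0.05 the counts were 4 and 3.

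**Figure D3:**
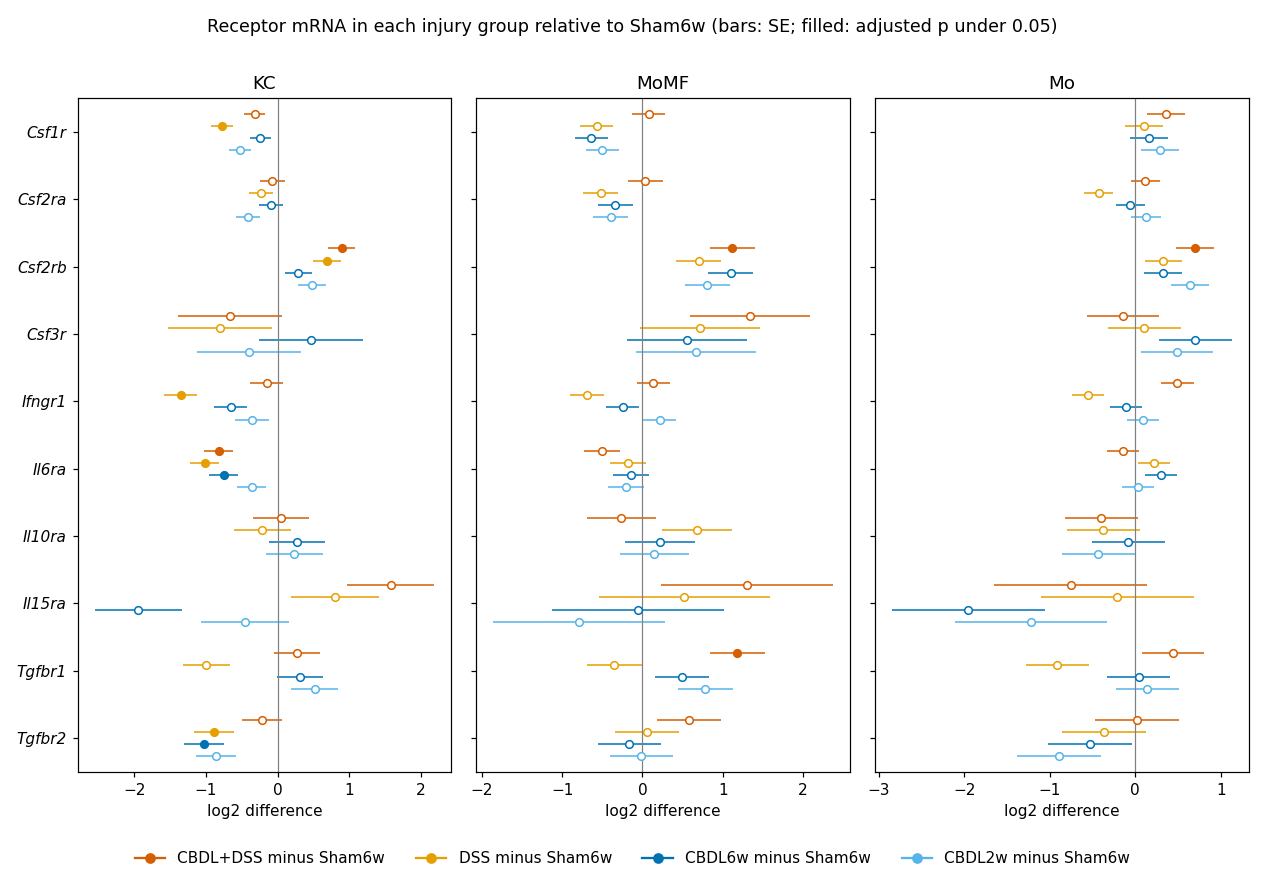
Log2 differences of the 10 receptors (rows) between each injury group (colour) and Sham6w in KC, MoMF and Mo (panels), with SE bars; filled points had an adjusted p under 0.05. Ifngr1 of DSS lies at -1.35 in KC, -0.69 in MoMF and -0.56 in Mo, and Csf2rb lies to the right of 0 in all 12 comparisons.

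In KC of advanced ligation, Il6ra and Tgfbr2 fell. Il6ra was 43.2, 52.9, 58.3 and 65.1 in CBDL6w, against 80.5, 91.6, 96.9 and 100.3 in Sham6w (-0.75 ± 0.20, adjusted p = 0.0398), and Tgfbr2 was 12.8, 14.4, 18.5 and 26.0 in CBDL6w, against 31.9, 34.9, 35.7 and 43.0 in Sham6w (-1.02 ± 0.28, adjusted p = 0.0405). Neither gene's groups overlapped. That made 2 of 10 receptors, where 3.25% of all genes were called. Each call was lost without any 1 of the 8 libraries except CBDL6w replicate 4 for Il6ra (adjusted p up to 0.104) and CBDL6w replicate 2 for Tgfbr2 (up to 0.137), and both were lost without the filter, with equal library totals, with edgeR and among libraries with single numbers. Il15ra was 0, 9.25, 13.5 and 27.7 in CBDL6w and 26.7 to 32.4 in Sham6w (-1.94 ± 0.61, adjusted p = 0.0809). Kupffer cell genes made up 0.235 to 0.482% of the reads in CBDL6w and 0.736 to 0.832% in Sham6w, and 4 of 9 fell while Cd207 rose. Genes of classical monocytes were at 0.0437 to 0.0847% in CBDL6w and 0.0187 to 0.031% in Sham6w, endothelial genes at 0.0216 to 0.0232% in CBDL6w and 0.0288 to 0.0584% in Sham6w, and ribosomal protein genes at 10.9 to 13.1% in CBDL6w and 7.79 to 8.82% in Sham6w. Their part in these results was not tested.

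At 2 weeks of ligation no receptor was called in KC, where 2.71% of all genes were called, although 4 of 10 had an unadjusted p under 0.05. Csf1r came nearest, at 452 ± 44.2 in CBDL2w and 652 ± 61.3 in Sham6w without overlap (-0.53 ± 0.15, adjusted p = 0.0588). Tgfbr2 was at 20.1 ± 5.84 in CBDL2w and 36.4 ± 4.72 in Sham6w, also without overlap (-0.86 ± 0.28, adjusted p = 0.0979). Between the stages, CBDL6w minus CBDL2w, limma called no receptor in KC, MoMF or Mo, where it called 0%, 0.0823% and 0% of all genes. At an unadjusted p under 0.05 there were 1, 1 and 0 receptors, and edgeR and DESeq2 also called none.

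In KC of ligation with colitis, Csf2rb rose and Il6ra fell relative to Sham6w, which made 2 of 10 receptors where 3.31% of all genes were called. Csf2rb was 101.5, 116, 128 and 144 in CBDL+DSS, against 59.6, 60.6, 69.7 and 70.5 in Sham6w (0.89 ± 0.19, adjusted p = 0.00953). Il6ra was 40.6, 45.8, 57.8 and 66.5 in CBDL+DSS, against 80.5 to 100.3 in Sham6w (-0.82 ± 0.20, adjusted p = 0.0240). Both genes' groups were separate. Kupffer cell genes were at 0.521 to 0.662% in CBDL+DSS, against 0.736 to 0.832% in Sham6w, and neutrophil genes at 0.00862 to 0.0125%, against 0.000618 to 0.00509%. Mitochondrial transcripts were at 4.55 to 5.75% in CBDL+DSS, against 6.46 to 9.0% in Sham6w, and ribosomal protein genes at 9.37 to 11.8%, against 7.79 to 8.82%. Their part in these results was not tested. Il15ra lay above Sham6w without overlap and was not called (1.58 ± 0.61, adjusted p = 0.182). The Il6ra call was lost without any 1 of Sham6w replicates 1, 2 and 3 and CBDL+DSS replicates 4+5 and 6 (adjusted p up to 0.103) and without the filter, and both calls among libraries with single numbers.

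Colitis added to ligation was then compared with ligation alone in KC. Il15ra, which presents Il15 to lymphocytes, was 64.8, 77.0, 116 and 122 normalized counts in CBDL+DSS, against 0, 9.25, 13.5 and 27.7 in CBDL6w. All 4 libraries of CBDL+DSS lay above all of CBDL6w, and above every library of each other group of KC. The rise of 3.52 ± 0.61 had an adjusted p of 0.00620 and made Il15ra the 1 receptor called, where 1.74% of all genes were called. Since 1 library of CBDL6w, replicate 3, had no Il15ra read, the size depends on the pseudocount: without it the rise was 2.52 (adjusted p = 0.000586), with a pseudocount of 5 it was 2.75, and edgeR and DESeq2 on recovered reads gave 2.88 and 2.87.

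Other values moved with Il15ra in these KC libraries. The list of the response to tissue dissociation includes Fos and Dusp1. Its genes held a read share of 0.48 to 1.1% in CBDL+DSS libraries, against 0.293 to 0.43% in those of CBDL6w. Of the 15 genes 3 rose, where 1.74% of all genes were called. Kupffer cell genes were at 0.521 to 0.662% of the reads in CBDL+DSS, against 0.235 to 0.482% in CBDL6w. Endothelial genes were at 0.025 to 0.0453%, against 0.0216 to 0.0232%. Read totals were 359823 to 512401 in CBDL+DSS, against 228741 to 327143 in CBDL6w. Neutrophil genes were at 0.00862 to 0.0125% in CBDL+DSS, against 0.000917 to 0.00787% in CBDL6w, with Camp, Elane, Ltf and Mpo at 0 in all libraries of both groups. Their part in the Il15ra difference was not tested. The libraries of CBDL+DSS include 2 with joined replicate numbers, and among libraries with single numbers the rise was 3.15 (adjusted p = 0.0795). Il15, its ligand, was at 14.3 ± 5.65 in CBDL+DSS and 6.13 ± 1.88 in CBDL6w and was not called.

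The test of whether colitis acted differently with and without ligation called Ifngr1, Tgfbr2 and Il6ra in KC, 3 of 10 receptors, where 6.02% of all genes were called. With ligation, Ifngr1 was 152, 161, 163 and 167 in CBDL+DSS and 97.1, 105, 116 and 140.1 in CBDL6w, all higher. Without ligation it was lower in all DSS libraries than in all Sham6w libraries, as given above. The difference between these effects was 1.85 ± 0.33 (adjusted p = 0.00188). For Tgfbr2 it was 1.70 ± 0.39 (adjusted p = 0.0131): CBDL+DSS had 24.4, 28.0, 34.9 and 38.8 and CBDL6w 12.8, 14.4, 18.5 and 26.0, while DSS lay below Sham6w. The calls of Ifngr1 and Tgfbr2 held without each library in turn, and that of Tgfbr2 was lost without the filter on low values (adjusted p = 0.0567). Il6ra was called at 0.95 ± 0.28 (adjusted p = 0.0499) and lost without any 1 of 13 of the 16 libraries, the exceptions being CBDL6w replicate 4, DSS replicate 4 and CBDL+DSS replicate 6 (adjusted p up to 0.106), and likewise without the filter, with equal totals, with edgeR and among libraries with single numbers. Il15ra (2.72 ± 0.86, adjusted p = 0.0618) and Csf1r (0.70 ± 0.21, adjusted p = 0.0505) were not called.

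**Figure D4:**
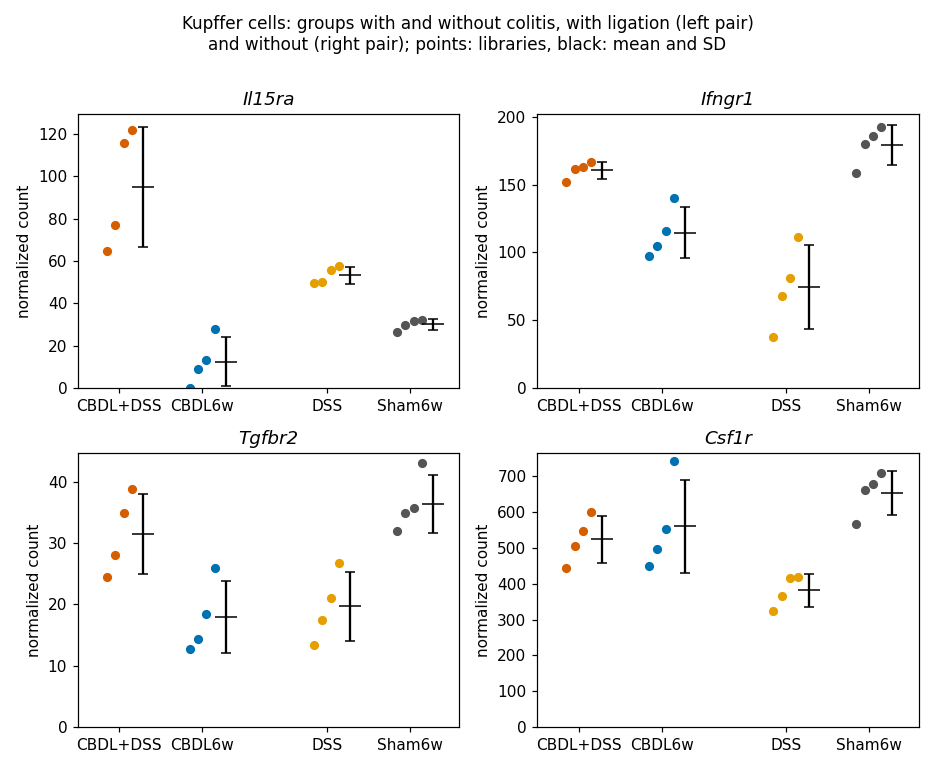
Normalized counts of Il15ra, Ifngr1, Tgfbr2 and Csf1r in KC libraries of the 4 groups that cross colitis with ligation (x axis); points are libraries, black marks the mean and SD. Ifngr1 is higher in CBDL+DSS than in CBDL6w and lower in DSS than in Sham6w, each without overlap, and Il15ra is highest in CBDL+DSS.

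In MoMF, Tgfbr1 and Csf2rb rose in CBDL+DSS relative to Sham6w, while Tgfbr2 (0.58 ± 0.39) and Csf2ra (0.03 ± 0.22) were not called. Tgfbr1 was 43.7, 44.1, 46.5 and 65.6 in CBDL+DSS, against 20.6, 20.6 and 22.3 in Sham6w (1.18 ± 0.34, adjusted p = 0.0305). Csf2rb was 79.9, 80.6, 81.0 and 81.8 in CBDL+DSS, against 25.5, 36.9 and 52.0 in Sham6w (1.12 ± 0.28, adjusted p = 0.0123). Both were separate from the n = 3 controls, and they made 2 of 10 receptors where 9.8% of all genes were called. The Tgfbr1 call was lost without any 1 of the 3 Sham6w libraries or CBDL+DSS replicates 2 and 4+5 (adjusted p up to 0.0893), and the Csf2rb call without Sham6w replicate 4+6 (adjusted p = 0.0613). Among libraries with single numbers, with 1 Sham6w library, the rises were 1.24 for Tgfbr1 and 1.11 for Csf2rb, and neither was called. The Tgfbr1 call was also lost without the filter. Genes of T and NK cells also differed, with shares of 0.00126 to 0.00312% in CBDL+DSS, against 0.0185 to 0.101% in Sham6w, and Gzmb and Klrb1c were at 0 in all CBDL+DSS libraries. Their part in these results was not tested.

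No receptor was called in MoMF at 2 weeks or at 6 weeks of ligation, where 3.06% and 1.22% of all genes were called, and 3 and 2 had an unadjusted p under 0.05. Csf2rb came nearest: it was 65.4, 77.4, 85.9 and 91.9 in CBDL6w and 53.9, 58.1, 63.7 and 88.8 in CBDL2w, against 25.5, 36.9 and 52.0 in Sham6w (1.10 ± 0.28, adjusted p = 0.0509, and 0.81 ± 0.28, adjusted p = 0.108). Csf1r was 358, 371, 390.5 and 469.7 in CBDL+DSS, against 203.5, 228, 241 and 298 in CBDL6w, without overlap. It was the 1 receptor called where colitis was added to ligation (0.71 ± 0.19, adjusted p = 0.0328), beside 4.16% of all genes, and the call was lost without any 1 of the 8 libraries except CBDL6w replicate 1 (adjusted p up to 0.112) and without the filter.

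The test of colitis with against without ligation called Csf1r and Ifngr1 in MoMF, 2 of 10 receptors, where 2.09% of all genes were called. For Csf1r the effects differed by 1.28 ± 0.28 (adjusted p = 0.0166), since it was 195, 208, 310.2 and 321 in DSS and 335, 339.8 and 463 in Sham6w. That call held without each library in turn. Among libraries with single numbers, with 1 of Sham6w, the effects differed by 1.24 and the call was lost. Kupffer cell genes were at 0.0295 to 0.0478% of the reads in MoMF of DSS and 0.0682 to 0.286% in Sham6w. Classical monocyte genes were at 0.128 to 0.171% in MoMF of CBDL+DSS and 0.212 to 0.349% in CBDL6w. They were at 0.177 to 0.234% in DSS and 0.0904 to 0.128% in Sham6w. The part of these cells in the Csf1r results of MoMF was not tested. For Ifngr1 they differed by 1.07 ± 0.28 (adjusted p = 0.0493), with 148, 156, 163 and 180.1 in CBDL+DSS and 102, 109.9, 118 and 176 in CBDL6w. This call was lost without any 1 of the 15 libraries except CBDL6w replicate 2 (adjusted p up to 0.1), and without the filter, with equal totals, with edgeR and among libraries with single numbers. Il15ra was 3.01, 41.7, 55.8 and 66.2 in MoMF of CBDL+DSS and 5.69 to 16.6 in CBDL6w, with 1 library below the others, and was not called (1.36 ± 0.99). In Mo the same test of colitis gave Ifngr1 1.16 ± 0.26 (adjusted p = 0.0512).

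In Mo, Csf2rb was the 1 receptor called against Sham6w. It was 77.8, 81.3, 97.3 and 119.7 in CBDL+DSS, against 39.8, 63.0 and 72.7 in Sham6w (0.70 ± 0.22, adjusted p = 0.0393), where 13.1% of all genes were called. The call was lost without any 1 of Sham6w replicates 1+2+5 and 3+6 and CBDL+DSS replicates 1, 4+5 and 6 (adjusted p up to 0.251), and without Sham6w replicate 3+6 the rise was 0.447. It was also lost without the filter. Among libraries with single numbers, with 1 Sham6w library, the rise was 0.322 and not called. No receptor was called at 2 weeks of ligation, at 6 weeks, where colitis was added to ligation or in the test of colitis with against without ligation, where 13.8%, 11.2%, 0.573% and 0.311% of all genes were called. The receptors with an unadjusted p under 0.05 were 1, 1, 3 and 4 in these comparisons. Ifngr1 was 157, 169.8, 183 and 215 in CBDL+DSS and 107, 127 and 152 in Sham6w without overlap, and it was not called (0.49 ± 0.19, adjusted p = 0.0878). Endothelial transcripts separated the same groups of Mo, as given above, and their part in the Csf2rb difference was not tested.

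Csf2rb stood above Sham6w in the fitted difference of all 4 injury groups in all 3 cell types, comparisons that share the Sham6w libraries of each cell type. The log2 differences ran from 0.29 ± 0.19 in KC of CBDL6w to 1.12 ± 0.28 in MoMF of CBDL+DSS, and 4 of the 12 were called. The neighbouring paralog Csf2rb2, a chain used by the receptor of Il3 in mice, is close in sequence, so reads may be split between them. Csf2rb2 was at 17.0 ± 3.42 in MoMF of CBDL+DSS and 4.6 ± 1.85 in Sham6w (1.73 ± 0.44, called), and at 24.2 ± 2.29 in KC of CBDL+DSS and 12.1 ± 1.95 in Sham6w, which was not called. Csf2ra, the ligand-binding partner of Csf2rb, was called against Sham6w in none of these 12 comparisons, and ran from 213 to 555 over all libraries.

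Lists of genes that act with these receptors were counted in the same fits. In KC of DSS, where 7.89% of all genes were called, 3 of 6 tested interferon-gamma targets rose: Gbp2 and Gbp5, interferon-induced GTPases, by 2.75 ± 0.79 and 2.55 ± 0.64, and the transcription factor Irf1 by 0.86 ± 0.26. Irf1 was at 147 ± 55.2 in DSS and 76.4 ± 7.77 in Sham6w. The median over the 6 was 0.739, beside -0.0658 over all genes. Of 6 tested partner chains Il10rb fell (-1.29 ± 0.31), of 9 JAK kinases and STAT factors Stat3 rose (0.87 ± 0.25), of 14 inhibitors of receptor signalling Skil (-1.02 ± 0.28) and Cbl (-0.81 ± 0.25) fell, and of 5 TGF-beta targets Itgb5 fell (-1.68 ± 0.26). In MoMF of DSS, Gbp2 (3.68 ± 0.73) and Irf1 (1.77 ± 0.33) of 6 interferon-gamma targets rose, where 2.07% of all genes were called. Endothelial transcripts were at 0.126 to 0.138% in these DSS libraries and 0.0261 to 0.0492% in Sham6w, and their part was not tested. In Mo of DSS, 1 of the 6, Gbp2, rose by 2.59 ± 0.62, where 1.59% of all genes were called. Several of these targets also respond to other interferons, and the ligand gene Ifng passed the filter in none of the fits.

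Of 6 TGF-beta targets tested in MoMF, all rose in CBDL+DSS, where 9.8% of all genes were called, with a median of 1.73 beside 0.0798 over all genes. Pmepa1, a feedback inhibitor of SMAD signalling, was at 37.5 ± 12.8 in CBDL+DSS and 3.02 ± 3.51 in Sham6w (3.66 ± 0.54), and the matrix protein Tgfbi was at 257 ± 56.5 in CBDL+DSS and 76.8 ± 34.6 in Sham6w (1.79 ± 0.26). In DSS 2 of 6, in CBDL6w 2 of 6 and in CBDL2w 3 of 6 rose, Tgfbi among them each time, where 2.07%, 1.22% and 3.06% of all genes were called. Genes of classical monocytes were at 0.128 to 0.171% of the reads in MoMF of CBDL+DSS, 0.177 to 0.234% in DSS, 0.212 to 0.349% in CBDL6w, 0.243 to 0.273% in CBDL2w and 0.0904 to 0.128% in Sham6w, and their part was not tested. In Mo, Tgfbi and Itgb5 rose in CBDL+DSS (1.66 ± 0.23 and 1.65 ± 0.37), CBDL6w (1.19 ± 0.23 and 1.97 ± 0.37) and CBDL2w (1.12 ± 0.23 and 1.49 ± 0.37). In these groups 13.1%, 11.2% and 13.8% of all genes were called. Classical monocyte genes were at 0.487 to 0.634% of the reads in these Mo groups and 0.307 to 0.414% in Mo of Sham6w. Endothelial genes were at 0.00906 to 0.0259% and 0.193 to 0.337% in the same order. The part of these cells was not tested. In Mo of DSS none of the 5 tested targets was called, where 1.59% of all genes were. None of the tested SMAD factors was called against Sham6w in any cell type, where 1.22 to 13.8% of all genes were called.

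Of the other lists, some called members are given here without counts. The share of all genes called in CBDL+DSS was 3.31% in KC, 9.8% in MoMF and 13.1% in Mo. In Mo it was 11.2% in CBDL6w and 13.8% in CBDL2w. Socs3, the feedback inhibitor of Il6 and Csf3 signalling, rose in CBDL+DSS in KC (1.74 ± 0.45), MoMF (1.17 ± 0.31) and Mo (0.83 ± 0.24), and Stat3 rose in KC of CBDL+DSS (0.93 ± 0.25). In MoMF of CBDL+DSS, Il2rb, a chain of the Il15 receptor that lymphocytes carry, fell by -3.55 ± 0.73 and Il2rg by -1.04 ± 0.30, beside the T and NK cell shares given above. Il4ra rose there by 1.69 ± 0.40 and Il17ra fell by -1.26 ± 0.37. In Mo, Il6st, the signalling partner of Il6ra, was at 14.8 ± 2.94 in CBDL+DSS, 11.51 ± 3.31 in CBDL6w, 11.1 ± 4.1 in CBDL2w and 62.6 ± 22.5 in Sham6w, and fell in all 3 (-1.97 ± 0.33, -2.33 ± 0.33 and -2.41 ± 0.33). The TGF-beta co-receptor Eng fell with it, by -4.88 ± 0.79, -4.42 ± 0.79 and -3.45 ± 0.79, as did Jak1 by -0.82 ± 0.19, -0.86 ± 0.19 and -0.86 ± 0.19. Eng is also a gene of endothelial cells, whose transcripts differed between these groups of Mo. Dendritic cell genes were at most 0.00312% of the reads in the ligated groups and 0.0206 to 0.0361% in Sham6w, B cell genes at most 0.00518% and 0.00831 to 0.0179%, and T and NK cell genes at most 0.00399% and 0.00463 to 0.0206%, in the same order. Classical monocyte genes were at 0.487 to 0.634% in the ligated groups and 0.307 to 0.414% in Sham6w. The part of these cells was not tested.

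Across cell types, 32.5% of all genes were called between KC and MoMF and 41.2% between KC and Mo. The feedback inhibitor Socs3 was lower in KC than in MoMF by -1.69 ± 0.16 and than in Mo by -2.41 ± 0.16. The inhibitor Socs2 was higher in KC, by 1.23 ± 0.31 and 1.57 ± 0.31. The ligand Il15 was higher in KC by 2.10 ± 0.33 and 1.38 ± 0.33. Il15ra itself was called against MoMF and not against Mo (0.71 ± 0.41, adjusted p = 0.171). Il6 was lower in KC than in Mo by -1.81 ± 0.35 and Tgfb1 by -1.28 ± 0.26. Il17ra, the Il17 receptor, was lower in KC by -0.96 ± 0.12 against MoMF and -1.34 ± 0.12 against Mo. Genes of the response to tissue dissociation held 0.293 to 1.1% of the reads in KC, 0.608 to 1.19% in MoMF and 0.729 to 1.45% in Mo. Their part in these differences was not tested.

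Over the 15 groups of cell type and injury, the means of each receptor formed a near-continuous order. Neighbours in that order were separate without overlap in 3 places: below MoMF of Sham6w for Csf1r, below KC of CBDL+DSS for Il15ra, and below KC of CBDL+DSS for Ifngr1, where the next group was MoMF of Sham6w. All other neighbours overlapped. Csf1r ran from 652 ± 61.3 in KC of Sham6w to 162 ± 38.7 in Mo of Sham6w, with the 5 Mo groups at the low end. Ifngr1 and Tgfbr1 had their 3 lowest groups in common, DSS of MoMF, Mo and KC, and the correlation of the pair over the 15 group means was the highest among the receptors (Pearson r = 0.781 of mean log2 values). The lowest was that of Csf1r with Il10ra (-0.856). These correlations describe 15 group means on a single normalized scale and carry no test.

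Among 3750 protein-coding genes, those whose group means were most like each receptor were Hfe (r = 0.972) and Bank1 (0.965) for Csf1r, Ankle2 (0.822) and Herc4 (0.791) for Csf2ra, and Polr2k (0.859) and Csf2rb2 (0.856) for Csf2rb. For Csf3r they were the monocyte genes Lyz2 (0.858) and F13a1 (0.839). Il10ra went with Bach1 (0.922) and Slk (0.902), Tgfbr2 with Dapk1 (0.916) and Sumo3 (0.905), and Il6ra with Klf13 (0.877) and Csgalnact2 (0.855). Tgfbr1 went with Neurl3 (0.873), Ifngr1 with Slc6a6 (0.849) and Pxn (0.809), and Il15ra with Dysf (0.810) and Hipk3 (0.810).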

How the data were processed

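Per the labels, RNA of KC, MoMF and Mo was turned into 3′ libraries with unique molecular identifiers (QuantSeq FWD). STAR 2.7.5b, RSEM 1.3.1, UMI-tools 1.0.1, Trimmomatic 0.39 and DESeq2 are listed, with the build GRCm38.p6, per the submitters' processing notes. The deposited values are a signal, gene counts divided by each library's size factor (0.404 to 1.675) by the authors; whole reads were recovered from the steps, and 100% of values came out whole within 0.01. Of 25307 identifiers 25272 matched a GENCODE M21 symbol. Genes with 10 normalized counts in at least 3 libraries were tested: 7555 over all libraries, 6159 in KC, 6079 in MoMF and 6112 in Mo. Differences were fitted with limma 3.58.1 (trend, robust; R 4.3.3) on log2(normalized count + 1), a scale that can understate changes of low genes and, where a library is at 0, overstate them: 1 fit of all 15 groups for cell types, and 1 per cell type for injuries. Alternatives were a pseudocount of 5, no filter, equal library totals, edgeR 4.0.16 and DESeq2 1.42.0 on recovered reads, a replicate block, libraries with single numbers only, and leaving out each library. Scripts were tested on simulated data. The receptors and gene lists were chosen with earlier results of these data known. The text gives every receptor, list members that were called, and, as similar genes, the 2 with the highest correlation over group means. A few genes that these rules name are not reported here. Library totals set the precision: the shallowest library, of MoMF in Sham6w, held 118687 reads.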

Additional observations from a re-analysis of the deposited data

Results flagged for a closer look

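In 5 of 130 sets of 4 libraries examined, 1 library stood apart from the other 3 by Dixon's criterion, and chance alone gives about 1 in 20. They were Csf2ra in MoMF of CBDL6w, where replicate 2 had 233.7 normalized counts and the others 373.3 to 388.9, and Tgfbr1 in MoMF of CBDL+DSS, where replicate 2 had 65.58 and the others 43.71 to 46.5. Tgfbr2 stood apart in KC of CBDL2w, at 28.75 in replicate 1 against 16.33 to 18.02, and in Mo of CBDL2w, at 3.803 in replicate 4 against 10.57 to 11.71. Il6ra did so in Mo of CBDL6w, at 138.6 in replicate 2 against 102.2 to 106.6.

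The response to injury of Il6ra differed between the cell types by limma's test over all genes (adjusted p = 0.0356). The effect of colitis differed with and without ligation in KC for Ifngr1 (1.85, log2), Tgfbr2 (1.7) and Il6ra (0.948), and in MoMF for Csf1r (1.28) and Ifngr1 (1.07).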

How the results depend on the processing

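No called receptor difference changed its direction under any alternative. Of 41 called differences, 41 were called with a pseudocount of 5, 28 without the filter, 35 with equal library totals, 36 with edgeR, 41 with DESeq2, 20 with the replicate block and 20 with single-number libraries. Leaving out 1 library kept the call in 843 of 932 refits and lost it in 89.

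Counts of receptor calls moved as follows. The 17 calls between cell types averaged over injuries ranged from 12, with single-number libraries, to 19, with DESeq2. In Sham6w, 4 calls between cell types became 7 with a pseudocount of 5 and 2 with single-number libraries. The 1 call of cell type by injury became 0 without the filter, 0 with equal totals, 2 with DESeq2 and 0 with single-number libraries. Injuries against Sham6w gave 9 calls in KC, 4 without the filter and 4 with single-number libraries; 2 in MoMF, 1 without the filter, 4 with DESeq2 and 0 with single-number libraries; and 1 in Mo, 0 without the filter and 0 with single-number libraries. For CBDL+DSS against CBDL6w, the 1 call in KC became 0 with single-number libraries, the 1 in MoMF 0 without the filter, and the 0 in Mo 1 with DESeq2. For colitis with against without ligation, 3 calls in KC became 1 without the filter and 5 with DESeq2, 2 in MoMF became 1 without the filter, 1 with equal totals, 1 with edgeR and 0 with single-number libraries, and 0 in Mo became 1 with a pseudocount of 5 and 1 with DESeq2. Tests without the filter adjust over more genes and single-number fits hold fewer libraries. In Sham6w the single-number fits kept 1 library of MoMF and 1 of Mo. They cannot show whether calls that use those groups came from joined libraries. What moved the counts was not tested for any alternative.

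Without 1 library at a time, counts ran from 17 to 19 for cell types averaged, 3 to 6 in Sham6w and 0 to 2 for cell type by injury. Injuries against Sham6w gave 4 to 10 in KC, 0 to 3 in MoMF and 0 to 2 in Mo. CBDL+DSS against CBDL6w gave 1 in KC, 0 to 1 in MoMF and 0 in Mo, and colitis with against without ligation 2 to 4, 1 to 2 and 0 to 1.

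Deviations from group means correlated weakly between libraries with the same replicate number. Over 45 pairs of cell types they correlated at -0.0611 to 0.095, and over 72 pairs of injury groups at -0.0552 to 0.0666. The median for cell types was 0.0346 with the same number and -0.0108 over 180 pairs with other numbers. Weak correlations cannot exclude that cell types with the same number came from the same animal. With the number as a replicate block, calls were 2 in Sham6w, 0 for cell type by injury, 3, 0 and 0 for injuries in KC, MoMF and Mo, 0 for CBDL+DSS against CBDL6w in KC and in MoMF, and 0 for colitis with against without ligation in KC and in MoMF. Within a cell type the block joined same-numbered libraries of different injury groups, which are different animals as far as the labels go. A library whose number no other library of its cell type carried had no weight. KC of CBDL+DSS thus rested on replicate 2, MoMF of Sham6w on replicate 3 and Mo of Sham6w on replicate 4. Such fits cannot decide calls that use those groups. For colitis with against without ligation they gave 2.14 for Ifngr1 and 1.72 for Tgfbr2 in KC, and 1.12 for Csf1r in MoMF. Il15ra in KC differed by 2.71 between CBDL+DSS and CBDL6w. Joined numbers, 3 Sham6w libraries in MoMF and Mo, and few reads of Csf3r, Il10ra, Tgfbr1 and Tgfbr2 limit what could be called.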
